A study of Mus musculus with 3 samples.

Results

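Expression of 10 genes that are mutated in Wilms tumour, or whose inherited variants predispose to it, was examined in the progenitors from which that childhood kidney cancer is thought to arise. The members were Amer1, Rest, Mllt1, Bcor, Bcorl1, Nono, Ctr9, Max, Dis3l2 and Fbxw7. They were chosen by name as genes of this disease, with no value on these arrays in the rule, although earlier results of these data were known. Wilms tumour genes that process microRNAs were not members, nor were Six2 and Wt1. The 10 members (of 18193 named genes on the array) were represented by 28 of the 34945 probe sets that carry a single gene symbol. The measurements came from 1 group of 3 arrays, each hybridised with RNA from sorted cap mesenchyme of E15.5 kidneys from CD-1 mice, Theiler stage 23, with about 5 to 10 kidneys in a pool. All pools carried Tg(Six2-EGFP/cre)1Amc, a transgene that couples Six2 regulatory sequence to EGFP and cre, so no array without the transgene served as a control. The labels give the sex as unknown and do not say whether the pools came from separate litters. The p-values test the height over background against the spread between these 3 samples, moderated over all probe sets. They do not measure the spread between litters.

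Cap mesenchyme is the progenitor layer around the ureteric tips that either renews itself or condenses into nephrons, and Wilms tumours often retain tissue that resembles it. The genes studied act at several levels of gene control. Rest, Mllt1, Ctr9, Bcor, Bcorl1 and Max encode proteins that repress, elongate or tune transcription, Amer1 encodes a brake on WNT signalling, Nono and Dis3l2 encode RNA-binding and RNA-degrading proteins, and Fbxw7 encodes the substrate receptor of a ubiquitin ligase. Amer1, Bcor, Bcorl1 and Nono are X-linked.

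With a single group, the design allows each gene to be set against the background of its own array. Values are linear array signals. The background level was the 95th percentile of 150 probe sets for odorant, pheromone and bitter taste receptors, keratin-associated proteins and defensins, and it lay at a signal of 197, 186 and 201 in pools 1, 2 and 3. A level over background is the difference in log2(signal + 16) from that threshold, averaged over the pools, and the added 16 narrows that difference. A probe set was called above background when its adjusted p-value in limma was under 0.05. A gene was called when any of its probe sets was, and the brightest probe set represented it. Signals of different genes cannot be ranked against each other because probe sets differ in affinity. In bulk RNA of this kind, fewer cells expressing a gene and less RNA per cell cannot be told apart.

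Markers of the labelled cell type were called throughout. Shares in brackets are those of named genes called at the same numbers of probe sets, and summed signals compare pools within a list, not lists with each other. All 8 cap mesenchyme markers (Six2, Cited1, Eya1, Sall1, Gdnf, Crym, Itga8 and Meox1) were called (48.9%), with a summed signal between 111939 and 128701 in the pools. Of the stroma markers 4 of 6 were called (50.7%), Aldh1a2, Foxd1, Penk and Dcn, while Tbx18 and Ntn1 were not called. The summed signal of the stroma list, 17819 to 24629.9, rested on Aldh1a2 and Foxd1. Of the neuron markers 3 of 5 were called (63.9%), a count at the background of the array. These were Elavl4, Nefl and Dbh, with Tubb3 and Stmn2 not called (summed signal of all 5 genes 4386 to 5434). Of the ureteric bud markers 2 of 8 were called (52.8%; summed signal of all 8 genes 930.5 to 1821). These were Wnt11 and Wnt7b, with Ret and Gata3 among those not called. None of 6 endothelium (41.6%; summed signal 449 to 476), 6 macrophage (50.4%; 563 to 879.5) or 5 erythroid markers (45.1%; 504 to 709) was called by limma, none had an unadjusted p-value under 0.05, and none lay over the background level on all 3 arrays. Kdr, Cd68 and Hba-a2 exceeded the background level in pools 2 and 3, and Epor did so in pools 1 and 2. The part that stromal, neural, ureteric bud or other cells have in the values below was not tested.

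Transcripts of 8 of the 10 genes were above background: Amer1, Rest, Mllt1, Bcor, Nono, Ctr9, Dis3l2 and Fbxw7. The others, Bcorl1 and Max, were not. Over all named genes 54.4% were called, and over all single-gene probe sets 47.2%, against 19 of the 28 probe sets here. A gene with more probe sets has more chances to be called. The share called over the whole array was 37.1% for genes with 1 probe set, 64.3% with 2, 76.9% with 3, 81.4% with 4 and 86.6% with 5. At the numbers of probe sets that the 10 genes have, named genes as a whole were called in 69.7% of cases. The count of 8 thus lay near the background of the array, and it is given as an inventory. The median level over background was 3.41 log2 units for the 10 genes and 1.20 for all named genes, which were not matched on the number of probe sets. Among called genes the medians were 3.93 for the members and 3.65 for the array.

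**Figure D1:**
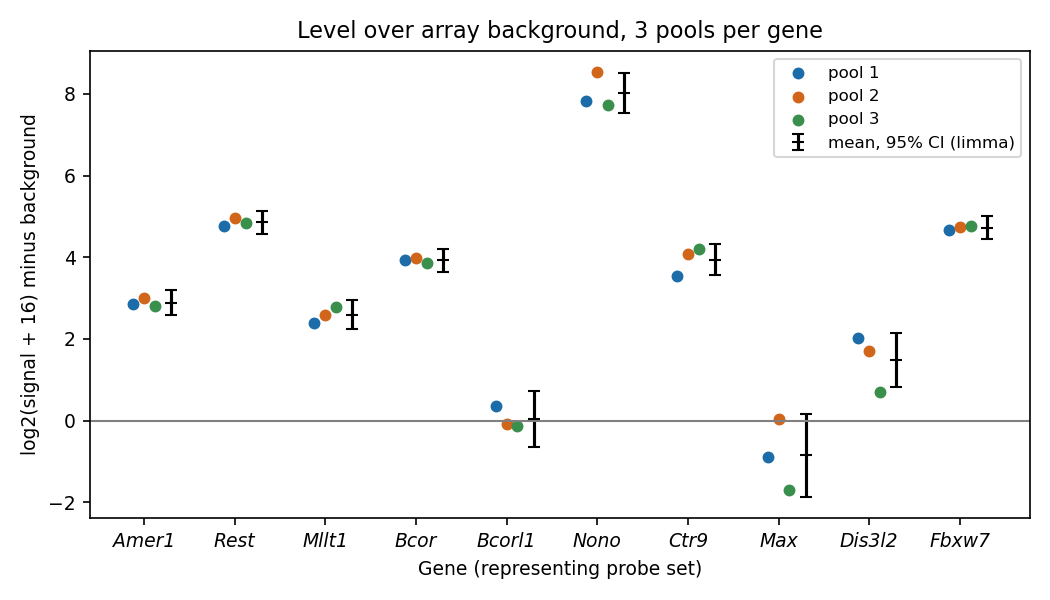
Level over background, as log2(signal + 16) minus the background level of the array, for the representing probe set of each of the 10 genes; points are the 3 pools, and the black bar is the mean with its 95% confidence interval from limma. The intervals of Bcorl1 and Max include 0 and those of the other genes lie above it; heights of different genes are not comparable because probe sets differ.

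Rest encodes a zinc-finger repressor that binds RE1 elements and silences neuronal genes outside the nervous system. Its representing probe set (1428227_at) read 5814, 6301 and 6159 in pools 1, 2 and 3. The pools lay close together and far over background, at a level of 4.86 log2 units (95% confidence interval 4.58 to 5.14; adjusted p = 1.6e-08, limma). A second probe set for the same gene (1425565_at) read 3454, 1653 and 499.7, a difference of 6.91-fold between pools 1 and 3, and was also called (adjusted p = 0.00078, limma). The remaining probe sets, 1425566_at and 1425564_at, did not pass, with means of 146 ± 20.1 and 108 ± 72.7 (SD, n = 3). Rest was thus seen steadily by a single probe set of 4.

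Genes that encode partners of REST were called throughout, and its classic neuronal targets mostly were not. All 11 measured cofactor genes were above background, against 54.4% of named genes and 67.1% at the same numbers of probe sets. Examples were Hdac2, a histone deacetylase (33410.3 ± 6129, SD, n = 3), and Kdm1a, a histone demethylase of the CoREST complex (20258.0 ± 3796). The count of cofactor genes was 8 when a majority of the probe sets of a gene had to be called. Of 13 measured neuronal target genes 1 was called, against 51.9% of named genes at the same numbers of probe sets. That gene was Gria2, a glutamate receptor subunit, with signals of 391, 326 and 350.0 (adjusted p = 0.0099, limma). Gria2 was called by 1 of its 3 probe sets. The count of target genes called ranged from 0 to 3 over the alternatives. It was 0 without pool 2, with background at its 99th percentile, and when a majority of the probe sets had to be called. Among those not called were Vgf, a secreted neuropeptide precursor (8.33 ± 1.53, SD, n = 3), and Chrm4, a muscarinic receptor (8.82 ± 5.63). Neuron markers were called in 3 of 5 cases, as given above. Elavl4 read 3705, 3326 and 3711 in pools 1, 2 and 3, and all 3 of its probe sets were called. Nefl had a mean of 952 ± 355 and Dbh of 427 ± 94.4 (SD, n = 3). Tubb3 and Stmn2 were not called, and Stmn2 was also among the target genes. Whether the target genes were low because of Rest was not tested.

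Mllt1 and Ctr9 act while RNA polymerase elongates. Mllt1 encodes ENL, a reader of acylated histones within the super elongation complex. Its probe set 1434805_at read 1098, 1205 and 1489, and all pools were over background (level 2.59, 95% confidence interval 2.24 to 2.95; adjusted p = 1.3e-06, limma). The other Mllt1 probe set, 1421060_at, read 69.8, 10.4 and 81.9 and was not called. In the rest of the super elongation list 11 of 12 measured genes were called (68.5% of named genes at the same numbers of probe sets), including the kinase gene Cdk9 (9632 ± 737, SD, n = 3) and the cyclin gene Ccnt2 (9456 ± 714). The elongation factor-associated Eaf2 was the gene not called (165 ± 87.5).

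Ctr9 encodes a scaffold of the PAF1 complex, which travels with the polymerase and promotes ubiquitination of histone H2B. Its brightest probe set, 1422679_s_at, read 2443, 3378 and 4002, lowest in pool 1 (level 3.94, 95% confidence interval 3.56 to 4.32; adjusted p = 1.8e-07, limma). Probe sets 1422680_at and 1422681_at were designed from the same sequence record, yet read 1023, 701 and 522 and then 712, 519 and 415, highest in pool 1. The 3 therefore order the pools in opposite ways although they name a single gene. Of the remaining probe sets, 1442240_at was called (561, 319 and 471). The last, 1448076_at, was not, as its signals of 760, 253 and 81.2 straddled the background level. The suffix _s_at marks probe sets that can match several transcripts, and without such probe sets the level of Ctr9 was 1.81. All 7 measured genes of the PAF1 complex and its H2B ubiquitin ligases were called (57.4% of named genes at the same numbers of probe sets). They included the subunit gene Wdr61 (31042 ± 4722, SD, n = 3) and Rnf20, which encodes a ligase (9950 ± 176). Rnf20 was called by 1 of its 4 probe sets, and that probe set carries the suffix _s_at. The count for the list was 6 without probe sets ending in _s_at or _x_at. It was also 6 when a majority of the probe sets of a gene had to be called.

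Bcor and its paralog Bcorl1 encode corepressors, and the first of them assembles the Polycomb complex PRC1.1. They differed in their calls. Bcor was called by all 3 of its probe sets. The representing one, 1429438_at, read 3224, 3144 and 3156, a range of 1.03-fold (level 3.92, 95% confidence interval 3.65 to 4.20; adjusted p = 3.4e-08, limma). The probe set 1428773_s_at read 2682, 2513 and 2834, and 1452910_at read 938, 904 and 866. No Bcor probe set varied by more than 1.13-fold between pools. Bcorl1 lay at the background level on both of its probe sets. Signals were 257, 173 and 183 on 1454172_at and 237, 137 and 163 on 1438469_at, so that pool 1 alone exceeded the background level (level 0.05, 95% confidence interval -0.64 to 0.74; adjusted p = 0.90, limma). No alternative called Bcorl1, and a signal at background does not show that the transcript is absent.

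Of 8 measured genes that encode other parts of PRC1.1, 6 were called, against 63.6% of named genes at the same numbers of probe sets. They included Usp7, a deubiquitinase (27094 ± 2193, SD, n = 3), and Kdm2b, which brings the complex to CpG islands (26731 ± 3192). Pcgf1, the Polycomb ring finger subunit that defines the complex (306, 157 and 409), and Ring1 (291, 158 and 319.7) were not called. Each had a single probe set, and pool 2 was the lowest for both.

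Max encodes the dimer partner that MYC proteins need in order to bind DNA. It had 1 probe set, 1423501_at, with signals of 99.1, 189.7 and 51.3, and pool 2 alone reached the background level of its array (level -0.85, 95% confidence interval -1.86 to 0.16; unadjusted p = 0.957, limma). Max was not called under any of the 13 alternatives. Its network was called almost throughout, with 10 of 11 measured genes (67.5% of named genes at the same numbers of probe sets). Myc read 9184, 11466 and 9183, and the antagonist gene Mxi1 had a mean of 7460.04 ± 569 (SD, n = 3). Mycl, another MYC gene, was not called (156 ± 83.4). No second probe set was at hand to check the low reading of Max.

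The promoter sequences of the uncalled genes Max and Bcorl1 are shown because each holds the E-box CACGTG, the letters that MYC and MAX dimers recognise, next to the transcription start. Windows from 250 bases before to 50 bases after the start were taken from RefSeq (GRCm38.p6) for the 7 members with an entry, 10 windows in all. CACGTG, which reads the same on both strands, was in 2 of these 10 windows and in 7.15% of all 32851 windows. That share was not matched on CpG content, although CACGTG contains a CpG. The median ratio of observed to expected CpG was 0.74 in the member windows and 0.38 over all windows. Bcor and Fbxw7 each had more than 1 window, so the windows are not separate genes. The first base of the E-box lies 3 bases before the start in Max and 12 bases before it in Bcorl1. The stretches run from 60 bases before to 10 bases after the start, 5′ to 3′, with the E-box in capitals. They are chr12:76962239-76962308 on the minus strand for Max and chrX:48341298-48341367 on the plus strand for Bcorl1. A match is a description of letters, and binding was not measured.
Max: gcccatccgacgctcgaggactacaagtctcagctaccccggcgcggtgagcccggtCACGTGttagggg
Bcorl1: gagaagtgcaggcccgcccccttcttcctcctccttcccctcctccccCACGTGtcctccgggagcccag

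Amer1 encodes a membrane-bound scaffold that assists the destruction of beta-catenin and so restrains WNT signalling. Its representing probe set, 1439565_at, read 1530.4, 1602 and 1494, and the pools differed by 1.07-fold (level 2.89, 95% confidence interval 2.57 to 3.20; adjusted p = 3.5e-07, limma). The other, 1453774_at, read 1065, 642 and 379, which is 2.81-fold from the highest to the lowest pool, and was also called (adjusted p = 0.0011, limma). Its paralogs Amer2 (112, 24.8 and 68.9) and Amer3 (46.0, 27.1 and 10.98) were below background in every pool. The other 9 of the 11 measured genes of the destruction complex list were called (68.1% of named genes at the same numbers of probe sets). Ctnnb1, which encodes beta-catenin itself, read 61276, 103490 and 60658, and the kinase gene Csnk1a1 had a mean of 41966 ± 5620 (SD, n = 3).

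Nono encodes an RNA- and DNA-binding protein of paraspeckles, nuclear bodies built on a long noncoding RNA. All 4 of its probe sets were called. The representing probe set, 1448103_s_at, read 48265, 74777 and 46181, with pool 2 above the others (level 8.03, 95% confidence interval 7.54 to 8.52; adjusted p = 1.9e-08, limma). The pools were closer on 1415820_x_at (38415, 38506 and 33290.2). Both suffixes mark probe sets that can match several transcripts, and without such probe sets Nono was still called, at a level of 3.46, from 1447160_at (2858, 2054 and 2077). The fourth probe set, 1431239_at, read 942, 376 and 190.0, so that pool 3 lay below the background level of its array, and it passed narrowly (adjusted p = 0.0490, limma). All 8 measured paraspeckle genes were called (74.0% of named genes at the same numbers of probe sets), with Hnrnpk at 49374 ± 9818 and Matr3, which encodes a nuclear matrix protein, at 40222 ± 7680 (SD, n = 3).

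The stretch before the start of Nono, the member whose 4 probe sets were all called, is shown beside those of the uncalled genes. It holds the CCAAT box, searched as CCAAT and its reverse complement ATTGG, at 109 and 36 bases before the start, and no CACGTG was found in its window. The CCAAT box was in 2 of the 10 windows, those of Nono and Mllt1, and in 37.4% of all windows. The stretch is chrX:101429531-101429660 on the plus strand (GRCm38.p6), 120 bases before to 10 bases after the start, with the box in capitals.
Nono: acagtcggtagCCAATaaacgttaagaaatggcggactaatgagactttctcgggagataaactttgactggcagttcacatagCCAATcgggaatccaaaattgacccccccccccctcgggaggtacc

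Dis3l2 encodes an exonuclease that degrades RNAs marked by a tail of uridines, among them the precursors of let-7 microRNAs, and its loss causes Perlman syndrome, in which Wilms tumour is frequent. Its representing probe set, 1437951_at, read 851, 643 and 337, all over the background level, with pool 1 highest (level 1.48, 95% confidence interval 0.82 to 2.14; adjusted p = 0.0016, limma). The call was lost when background was set at its 99th percentile, where 46.1% of named genes were called (adjusted p = 0.335, within 5.4e-05 to 0.335 over the alternatives with a test). Signals of 256, 265 and 326 on 1434090_at were over the level in every pool but did not pass (adjusted p = 0.098, limma), and 1459365_at was far below it (33.4 ± 2.84, SD, n = 3). Of 9 measured genes of uridylation and RNA decay 7 were called (61.0% of named genes at the same numbers of probe sets). These included Tut7, a uridylyltransferase (9748 ± 1120), and Dis3, the nuclease of the RNA exosome (6696 ± 174). Lin28a (8.82, 54.7 and 128) and Lin28b (14.6, 5.20 and 21.7), which recruit uridylyltransferases to let-7 precursors, were below background in every pool.

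Fbxw7 encodes the F-box protein through which a ubiquitin ligase recognises MYC, cyclin E and other growth regulators. Its representing probe set, 1451558_at, read 5386, 5388 and 5883 (level 4.73, 95% confidence interval 4.45 to 5.00; adjusted p = 1.6e-08, limma). A second probe set designed from the same sequence record, 1424986_s_at, read 1179, 815 and 459, and was called as well (adjusted p = 0.00032, limma). The first varied by 1.09-fold between pools and the second by 2.57-fold. Of the 4 genes in the ligase core list, Skp1 (25134 ± 3816), Cul1 (20039 ± 1424) and the deubiquitinase gene Usp28 (3601 ± 208, SD, n = 3) were called, and the ring finger gene Rbx1 was not (147, 85.4 and 11.8), against 43.9% of named genes at the same numbers of probe sets. Of 10 substrate genes 9 were called (65.3% of named genes at the same numbers of probe sets), including Mcl1, which protects from cell death (24543 ± 1786), and the cyclin gene Ccne1 (15635 ± 1674). Klf5, a transcription factor gene, was the exception (268, 202 and 108).

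Fbxw7 is shown with its 3 annotated starts because its transcripts begin with alternative first exons, and the deposited values do not say which of them each probe set measures. The windows of the starts had a G and C content of 69.0%, 29.7% and 46.0%, against a median of 52.7% over all windows and 63.5% over the 10 windows of members. Each stretch runs from 60 bases before to 10 bases after the start on the plus strand (GRCm38.p6), at chr3:84815517-84815586, chr3:84864085-84864154 and chr3:84952151-84952220.
Fbxw7 start 1: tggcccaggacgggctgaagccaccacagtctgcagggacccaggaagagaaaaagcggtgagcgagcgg
Fbxw7 start 2: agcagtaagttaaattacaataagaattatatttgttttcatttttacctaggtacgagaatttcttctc
Fbxw7 start 3: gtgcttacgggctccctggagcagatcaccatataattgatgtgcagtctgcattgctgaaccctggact

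**Figure D2:**
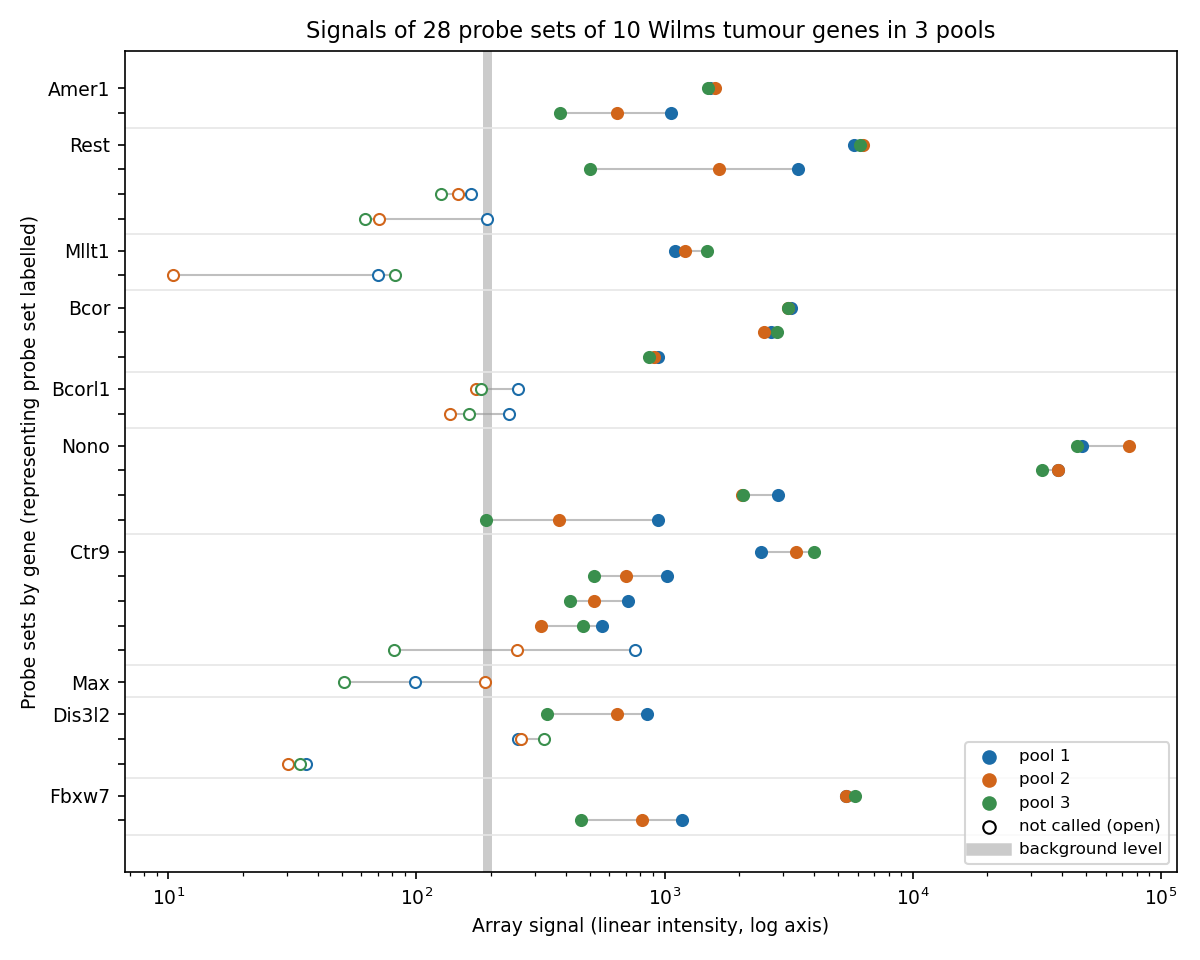
Array signal (linear intensity on a log axis) of all 28 probe sets of the 10 genes, grouped by gene with the representing probe set on top; each point is a pool, filled where limma called the probe set, and the grey band spans the background levels of the arrays (186 to 201). The 9 open probe sets lie below, at or across the band or just above it, and the second probe sets of Amer1, Rest and Fbxw7 spread far wider than the first.

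Probe sets of the same gene disagreed on how the pools differ for Amer1, Rest, Nono, Ctr9 and Fbxw7, while those of Bcor varied by at most 1.13-fold. The representing probe set is the brightest by rule, so representing and other probe sets were not matched on signal. The 8 representing probe sets of called genes varied by a median of 1.22-fold between pools, against 1.36-fold for all called genes, and 1 of them, that of Dis3l2 (2.52-fold), varied by at least 2-fold, where 7.36% of called genes on the array did. Without pool 1 or without pool 3 that count was 0. The other 11 called probe sets varied by a median of 1.76-fold, against 1.47-fold for such probe sets on the whole array. Of these 11, 4 varied by at least 2-fold, where 19.8% of such probe sets did: Rest 1425565_at (6.91-fold), Nono 1431239_at (4.96-fold), Amer1 1453774_at (2.81-fold) and Fbxw7 1424986_s_at (2.57-fold). That count was 1 without pool 1 and 2 without pool 3.

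Pool 1 gave the highest signal on 9 of the 11 other probe sets and on 2 of the 8 representing ones. Over the whole array the shares were 44.8% and 29.5%. Pool 1 was highest and pool 3 lowest on 7 of the 11, against 27.7% of such probe sets on the array, and on 1 of the 8, against 13.8%. These counts describe a pattern seen in the same data, and probe sets of a gene share its transcripts, so no test was made. The ratio of 3' to 5' control probe sets, a measure of RNA and amplification length, was lowest in pool 1 for 3 of 4 control transcripts. It was 1.82, 3.28 and 3.18 log2 units in pools 1, 2 and 3 for b-ActinMur, 1.84, 3.15 and 2.57 for TransRecMur and 1.66, 2.09 and 2.65 for PyruCarbMur. For GapdhMur it was 4.36, 5.05 and 4.08, lowest in pool 3. The part of RNA length in the pattern was not tested.

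**Figure D3:**
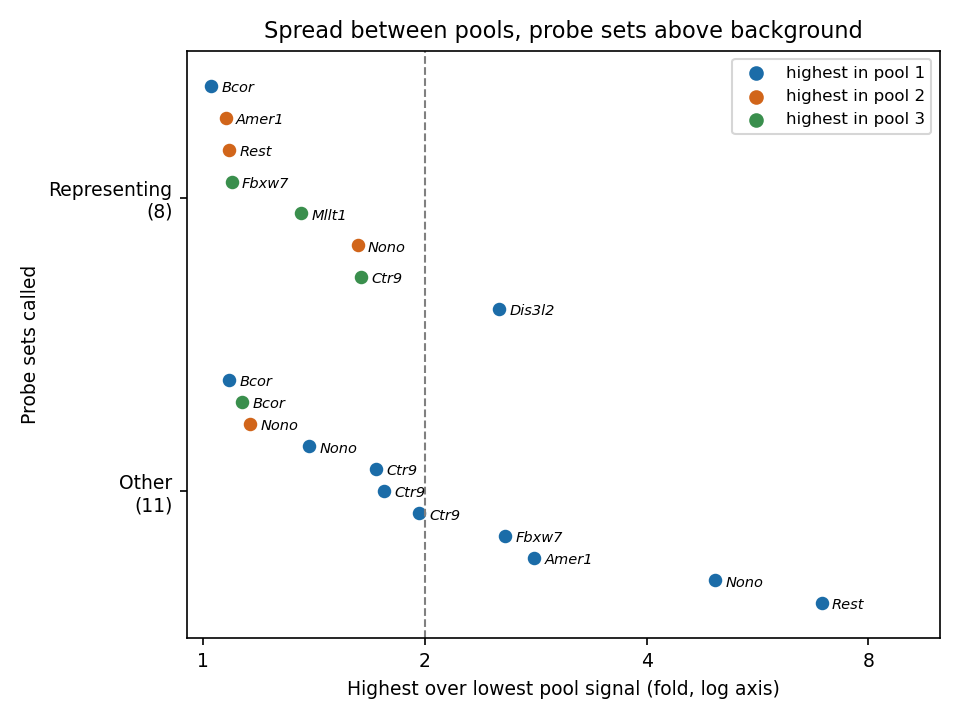
Highest over lowest pool signal (fold, log axis) for the 19 called probe sets, with the 8 representing probe sets above and the 11 others below; colour gives the pool with the highest signal, and the dashed line marks 2-fold. Among the others 9 are highest in pool 1 and 4 lie beyond the line, and among the representing ones Dis3l2 alone does.

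The call was mixed, with passing and failing probe sets, for 64.4% of the called genes on the array that had several. Among the 8 called here, all with several probe sets, 4 were mixed (Rest, Mllt1, Ctr9 and Dis3l2), and in Amer1, Bcor, Nono and Fbxw7 every probe set passed. When a gene had to be called by a majority of its probe sets, 5 of the 10 genes remained, as Rest, Mllt1 and Dis3l2 fell out, and the share over all named genes was 39.0%.

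Other genes of the same disease and of the same complexes were mostly called. Of 122 measured genes in 12 lists, 99 were called (81.1%, against 62.6% of named genes at the same numbers of probe sets), and the neuronal targets supplied 12 of the 23 that were not. When a majority of the probe sets of a gene had to be called, 70 of the 122 remained. Over all named genes that rule called 39.0%, a share not matched on the number of probe sets. Among 23 other measured Wilms tumour genes 22 were called (59.1% of named genes at the same numbers of probe sets). They included Ctnnb1 and Trim28, a corepressor and predisposition gene (38262 ± 5488, SD, n = 3), and Nynrin was not called (163, 17.2 and 118). Under the majority rule 18 of the 23 remained. Signals printed for Usp7, Kdm2b, Hdac2, Kdm1a, Mcl1, Ccne1 and Trim28 came from probe sets ending in _s_at or _x_at, which can match several transcripts. Without such probe sets 97 of the 122 genes were called. Ctnnb1, Myc, Mycn and Skp1 stood in more than 1 list, and Six2 was also the gene whose transgene the sort relied on. No test was made of any list, since genes are not replicates and the lists were drawn up with earlier results known.

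**Figure D4:**
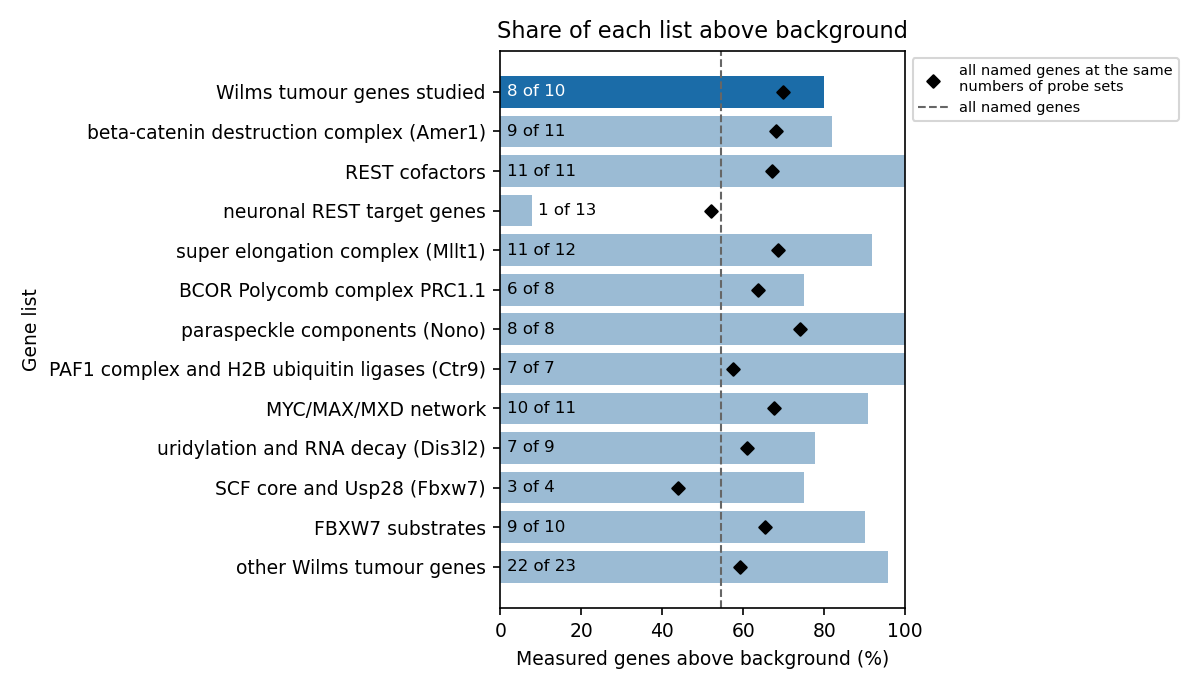
Share of measured genes above background (%, bars starting at 0) for the 10 Wilms tumour genes (dark bar) and 12 lists of partner, target and other Wilms tumour genes, with the counts inside or beside each bar. The dashed line is the share over all named genes (54.4%) and each diamond the share of named genes at the same numbers of probe sets; the neuronal REST targets lie below their diamond and the other lists above theirs.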

How the data were processed

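Array signals were measured in 3 samples of 1 group, numbered by their titles. The values deposited by the authors are linear intensity signals for 45101 probe sets, made with GCOS per the submitters' processing notes, whose version and settings are not given in the sources used here; the genome build is not given there either. The trimmed mean (without 2% of values at each end) was 1500.01 on all arrays, as tested on the values, so differences in that mean had been removed. It leaves out the brightest values, and the highest signal was 75402, 139283 and 75242 in pools 1, 2 and 3. Median signals were 222, 197 and 184. Per the labels, RNA was amplified in 2 rounds.

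Names came from the platform annotation (34945 with 1 symbol, 932 with several, 9160 with none, 64 controls); all 10 members matched RefSeq by Entrez identifier. From log2(signal + 16) the background level of each array was subtracted. An intercept-only model with eBayes and a trend (limma 3.58.1, R 4.3.3) gave a one-sided p-value against 0, adjusted by Benjamini-Hochberg over 45037 probe sets. The procedure was first run on simulated data, where planted probe sets shared the median spread of those above background. That setting does not check calls of noisier probe sets near background. The confidence level was 95%, and the number of arrays limits precision. Figures used matplotlib 3.10.9 in Python 3.11.15.

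The members and lists were chosen with earlier results of these data known. All members were named, as were the called markers and some of the uncalled ones. From each partner list the 2 called genes with the highest and the 2 uncalled genes with the lowest level over background were named, or all genes of lists of up to 5. Alternatives changed the background level, its probe sets, the pseudocount, normalization, eBayes trend, filters, call rules and arrays. Of 128 partner genes 6 were not analysed here, and neither were 2 markers.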

Additional observations from a re-analysis of the deposited data

How the results depend on the processing

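Calls and levels were recomputed under 13 alternatives. The count of members above background was 7 at the 99th percentile of background (46.1% of all named genes), 5 when a majority of the probe sets of a gene had to be called (39.0% of all named genes), and 8 under the other 11, including without each pool in turn (8 to 8). Called probe sets numbered 13 to 20, with 13 when probe sets ending in _s_at or _x_at were left out. Of 130 recomputed member calls 126 were kept and 4 were lost (Dis3l2 under both of the stricter settings, Rest and Mllt1 under the stricter gene rule), and none changed direction. The count of representing probe sets with a 2-fold range was 0 without pool 1 or pool 3, within 0 to 1 when a pool was left out. Leaving out pools for the other 11 probe sets was an alternative chosen after seeing the data. Of 156 list counts 145 stayed within 1.5 times. The stricter gene rule lowered the destruction complex from 9 to 5, the super elongation list from 11 to 6 and the MYC network from 10 to 4, and the neuronal targets ranged from 0 to 3 against 1. No paired analysis was possible because there was a single group. Signals near background, as of Bcorl1 and Max, set no limit on the true level.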
